A study of Mus musculus with 17 samples.

Results

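Expression of 10 nuclear regulators of blood stem and progenitor cells was followed across 17 RNA sequencing libraries of mouse fetal liver cells: Hoxa9, Hoxa10, Meis1, Mecom, Hlf, Sox4, Runx1, Myb, Mycn and Bmi1. They were chosen by name, with earlier results of these data known. All 10 were found among the 47069 genes of the count table that holds the overexpression groups. The 3 deposited tables were joined by Ensembl gene identifier, which left 46880 genes listed in all of them. Levels are given as CPM, that is, counts scaled to library total in the usual per-million unit after TMM scaling over the 17 libraries.

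All groups share a strain and a stage: per the labels, the mice were B6J.129(Cg) with the Fezh/J allele of Gt(ROSA)26Sortm1.1, in which the CAG promoter drives cas9 and EGFP, and the embryos were between E12.5 and E13.5. Every group but WT carried a guide against Gata1 (sgGata1), named Gata1s cells in the study after the shortened GATA1 protein, a transcription factor, and a second transgene. The LUC group (luciferase control, 3 libraries) and the group labelled Arid3a (3) had doxycycline at 1 µg/mL for 48 h. The sh-ctrl group (control hairpin, 3), the shArid3a group (hairpin against Arid3a, 2) and the miR-125b group (the microRNA, 3) had the same dose for 10 days. The WT group (3) carried sgLuc and shLuc and no doxycycline is listed for it. The promoters of the transgenes, the number of embryos and whether a group is 1 clone are not given in the sources used here. Nothing says that replicates came from separate cultures, so p-values measure only the spread between these samples, which may be technical.

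These genes act at several steps of 1 network. HOXA9 and HOXA10 bind DNA together with TALE-class partners such as MEIS1. MECOM and HLF mark long-term stem cells, RUNX1 and MYB set up definitive blood formation, and SOX4 and MYCN act on proliferation of progenitors. BMI1 belongs to Polycomb repressive complex 1, which places a repressive histone mark and is known for holding the Ink4a/Arf locus (Cdkn2a) silent. Several of them, among them Hoxa9, Meis1, Mecom and Hlf, are familiar from acute leukaemias. The study's title links a megakaryoblastic leukaemia with miR-125b, GATA1s and ARID3A.

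A microRNA binds 3′ untranslated regions (UTRs) through its seed, so the seed of miR-125b was searched for in the 10 genes. The mature sequence of mmu-miR-125b-5p (RefSeq, GRCm38.p6) is encoded at chr9:41581940-41581961 and at chr16:77646279-77646300, both on the plus strand, and is printed with its seed, bases 2 to 8, in capitals.
mmu-miR-125b-5p: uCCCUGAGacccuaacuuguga
Matches were sought in the annotated 3′ UTRs of GENCODE M21 (GRCm38). An 8mer match is CTCAGGGA, a 7mer-m8 match is CTCAGGG without the final A, and a 7mer-A1 match is TCAGGGA without the leading C. None of the 10 genes held an 8mer match, which 6.87% of the 11522 tested genes with an annotated 3′ UTR held. Sox4 held 1 7mer-m8 match, and Myb and Hoxa10 held 1 7mer-A1 match each. Thus 3 of 10 genes held a match of any kind, beside 27.1% of tested genes. The 3′ UTR of Arid3a, shown for contrast, held 2 8mer, 4 7mer-m8 and 1 7mer-A1 matches. Matches in capitals are given in their 30-base surroundings on the sense strand.
Sox4, 7mer-m8, chr13:28951399-28951428, minus strand: catcccccactCTCAGGGctggggactcga
Myb, 7mer-A1, chr10:21125052-21125081, minus strand: gttcctgggctTCAGGGAagacaaatatgg
Hoxa10, 7mer-A1, chr6:52231999-52232028, minus strand: gctgtgtttaaTCAGGGAgtccaggcctgg
Arid3a, 8mer, chr10:79952876-79952905, plus strand: gcctcctgtgcCTCAGGGAtgacagtgctg
Arid3a, 8mer, chr10:79953809-79953838, plus strand: tgggtaactggCTCAGGGAtatagcagcca
A match describes the sequence only.

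The largest contrast among these genes was between the WT group and all 14 Gata1s libraries. Hoxa9, Hoxa10, Hlf and Mecom, with at least 10 counts in every WT library, had at most 6 counts in any Gata1s library. Sox4 and Myb were also higher in every WT library than in any Gata1s library, while Meis1 and Mycn were lower. Runx1 and Bmi1 overlapped between the sides. Of the 16587 genes that passed a filter over the 6 groups, 21% lay above every Gata1s library in WT and 15.7% lay below. Hoxa9, Hoxa10, Hlf and Mecom passed this filter through WT alone and so had to lie above, and a count of the regulators on either side is a description only. Guide, hairpin, doxycycline and count table all change between WT and the other groups and cannot be told apart, so no test was made across tables. In bulk RNA, fewer cells of a type and less RNA per cell cannot be told apart either.

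**Figure D1:**
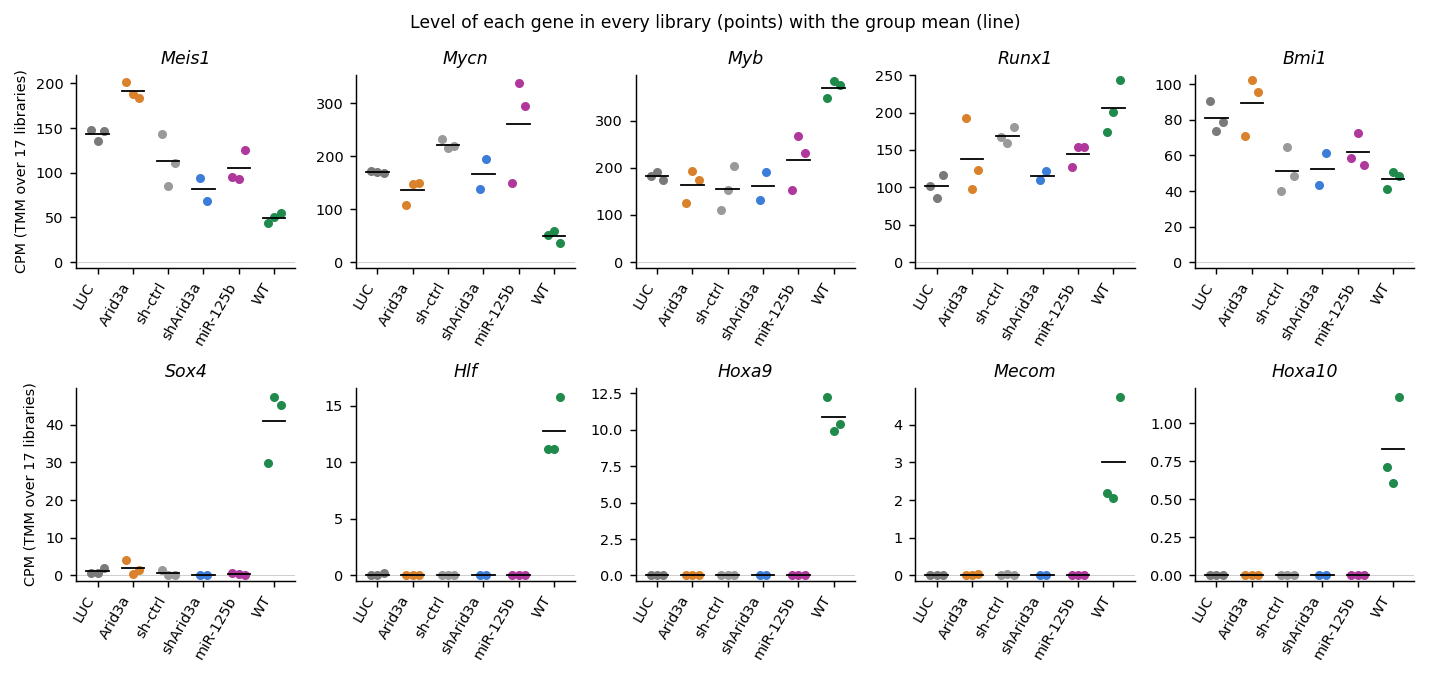
CPM (y axis, linear, own scale per gene) of the 10 regulators in each library, drawn as points by group with a line at the group mean. Hlf, Hoxa9, Mecom and Hoxa10 lie at or near 0 in all 14 Gata1s libraries, Sox4 reaches at most 4.18 CPM there, and Meis1 and Mycn are lowest in WT.

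Library totals ran from 31339238 to 40859301 counts in the Gata1s libraries and from 16362439 to 19212193 in WT, so 3 counts correspond to 0.0732 to 0.107 CPM and to 0.135 to 0.164 CPM. Arid3a itself, the targeted gene, had 49.8, 61.4 and 63.8 CPM in sh-ctrl, 22.5 and 21.5 CPM in shArid3a, 8.0, 10.9 and 11.1 CPM in miR-125b, and 211, 251 and 264 CPM in WT. In the libraries labelled Arid3a it had 53.3, 69.2 and 74.5 CPM beside 62.4, 59.3 and 64.7 CPM in LUC, a difference of 0.08 on the log2 scale (SE 0.12, edgeR adjusted p = 0.737). The counts therefore do not show the overexpression that the label names, and these are called the libraries labelled Arid3a throughout. Gata1 counts, 233 to 595 CPM in Gata1s cells and 59.98 to 71.8 CPM in WT, do not check the edit, which changes the protein form.

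The cells of the 2 sides also carried different lineage markers. All 14 of 14 neutrophil and monocyte markers were above every Gata1s library in WT, with a summed level of 15648 to 21009 CPM beside 16.5 to 165 CPM in LUC, 13.2 to 68.2 CPM in the libraries labelled Arid3a, 72.8 to 119 CPM in sh-ctrl, 49.3 to 91.4 CPM in shArid3a and 105 to 190 CPM in miR-125b. No such marker was at 0 in WT, while up to 7 of 14 were at 0 in a Gata1s library. The 16 megakaryocyte and platelet markers summed to 3186 to 5598 CPM in Gata1s cells and 2843 to 3436 CPM in WT. Mast cell and basophil markers summed to 266 to 1609 CPM and 1496 to 1742 CPM. Erythroid markers summed to 406 to 447 CPM in miR-125b, 608 to 916 CPM in sh-ctrl and 496 to 532 CPM in WT. The megakaryocyte sums overlap, but single markers moved. Between miR-125b and sh-ctrl, 1 of the 16 was called higher and 9 lower by edgeR, beside 24.4% of all genes called. Their median log2 fold change was −1.08 there, and −0.81 between shArid3a and sh-ctrl, where 0 were called beside 0.0857% of genes. The 10 hepatocyte markers stayed between 0.863 and 10.1 CPM in all libraries, so RNA of liver parenchyma was near 0 in these fetal liver cells. The part of these lineage markers in the levels of the 10 regulators was not tested.

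**Figure D2:**
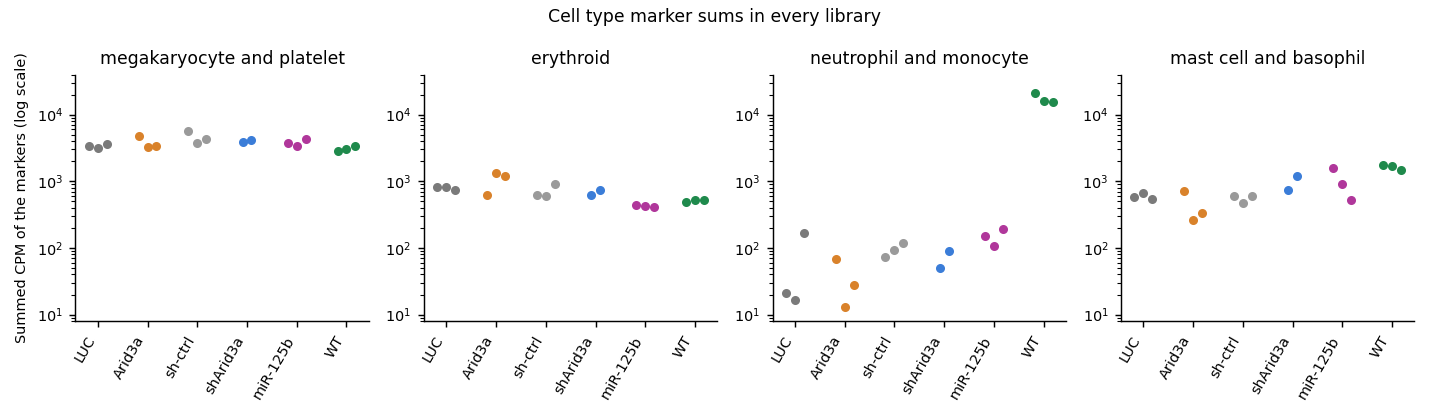
Summed CPM (y axis, log scale) of the markers of 4 blood lineages in each library, drawn as points by group. Neutrophil and monocyte markers reach 15648 to 21009 CPM in WT and at most 190 CPM in the other groups, whereas the sums of the megakaryocyte markers overlap.

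Positions of the genes are those of the deposited WT table, on GRCm38. Hoxa9 (chr6:52223100-52231089, minus strand), a homeodomain factor linked to self-renewal in myeloid leukaemia, had 224, 211 and 230 counts in the WT libraries, or 12.3, 9.90 and 10.4 CPM. It had 1 count in LUC replicate 3 and 0 counts in the other 13 Gata1s libraries. The groups did not overlap, and the pooled WT level was 5237 times the pooled Gata1s level, with a counting interval of 937 to 207160 that covers counting error only. Hoxa10 (chr6:52231197-52240854, minus strand), its neighbour in the cluster, had 13, 13 and 26 counts in WT and 0 in all 14 Gata1s libraries. Against a floor of 3 counts over the 14 libraries, Hoxa10 was at least 136.5-fold higher in WT. Per kilobase, the WT level of Hoxa9 was 1.94 ± 0.23 CPM and that of Hoxa10 was 0.25 ± 0.09 CPM (SD, n = 3).

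The rest of the HOX-A cluster followed the same division. Of 9 further cluster genes, the 6 that passed the filter over the 6 groups were all above every Gata1s library in WT, beside 21% of all genes. A gene that passed this filter through WT alone had to differ, so the count is a description. Hoxa7, the most highly expressed of them and named after its values were seen, had 83, 110 and 105 counts in WT and at most 2 in any Gata1s library. Hoxa11 and Hoxa13, at the far end of the cluster and also named after their values were seen, had 0 counts in all 17 libraries. No HOX-A gene had enough counts to be tested within the Gata1s tables.

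Hlf (chr11:90336536-90390895, minus strand), a PAR bZIP factor that marks long-term stem cells, had 204, 239 and 350 counts in WT, or 11.2, 11.2 and 15.8 CPM. The 14 Gata1s libraries held 10 counts in all, 6 of them in LUC replicate 3. The pooled WT level was 625 times theirs (counting interval 338 to 1307). Mecom (chr3:29951296-30548008, minus strand), which encodes the zinc finger factor EVI1 and its longer MDS1 fusion form, had 40, 44 and 105 counts in WT, or 2.19, 2.06 and 4.74 CPM. It had 1 count in replicate 3 of the libraries labelled Arid3a, 1 in sh-ctrl replicate 2 and 0 in the other 12. The pooled ratio was 744 (counting interval 203 to 6190).

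A limit of at most 10 counts in each Gata1s library, set after the values were seen, took in 4 of the 10 regulators, beside 4.59% of the 13027 genes with at least 10 counts in every WT library. At a limit of 3 or 5 counts Hlf drops out and 3 regulators are left, beside 2.02% and 2.96% of genes. Since the regulators were chosen with earlier results of these data known, these counts are a description only. LUC replicate 3, which held the Hoxa9 count and most Hlf counts, also had a neutrophil marker sum of 165 CPM beside 21.2 and 16.5 CPM in the other LUC libraries. Without it, 4 of 10 were still within 10 counts.

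**Figure D3:**
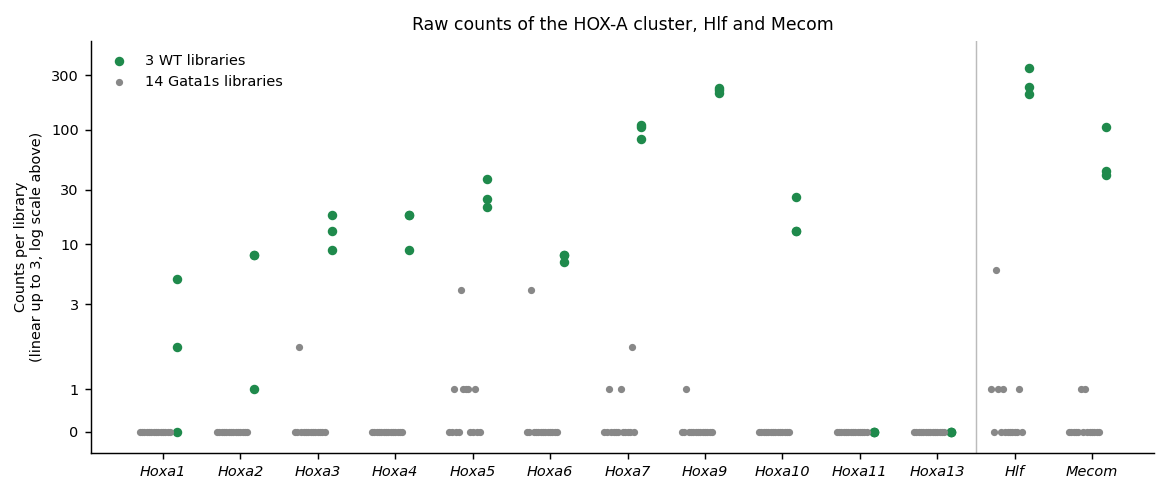
Raw counts per library (y axis, linear up to 3 and log scale above) of the 11 HOX-A cluster genes, Hlf and Mecom, with 3 WT libraries (green) and 14 Gata1s libraries (grey) as points. No Gata1s library exceeds 6 counts for any of these genes, and Hoxa9 and Hlf have at least 204 counts in every WT library.

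The 250 bases upstream of the RefSeq start (GRCm38.p6) are shown for Hlf, Hoxa9 and Hoxa10, since these were near 0 in Gata1s cells and the windows overlap no annotated exon. All 10 genes matched the RefSeq promoter table. Capitals mark GATAA (GATA factors), TGTGGT (RUNX), TGACAG (MEIS), CACGTG (the MYC E-box) and ATTAAA (an AT-rich ARID3A motif), searched on both strands.
Hlf, chr11:90390918-90391167, minus strand: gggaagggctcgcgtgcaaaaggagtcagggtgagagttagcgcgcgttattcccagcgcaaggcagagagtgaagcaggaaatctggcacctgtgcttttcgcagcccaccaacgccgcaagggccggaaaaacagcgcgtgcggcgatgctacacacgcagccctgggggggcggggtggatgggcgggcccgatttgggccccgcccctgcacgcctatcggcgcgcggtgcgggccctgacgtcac
Hoxa9, chr6:52227371-52227620, minus strand: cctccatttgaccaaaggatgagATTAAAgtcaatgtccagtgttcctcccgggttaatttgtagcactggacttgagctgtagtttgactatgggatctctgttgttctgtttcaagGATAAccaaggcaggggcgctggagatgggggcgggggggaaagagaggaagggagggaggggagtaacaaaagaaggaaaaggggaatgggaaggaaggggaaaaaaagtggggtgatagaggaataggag
Hoxa10, chr6:52240855-52241104, minus strand: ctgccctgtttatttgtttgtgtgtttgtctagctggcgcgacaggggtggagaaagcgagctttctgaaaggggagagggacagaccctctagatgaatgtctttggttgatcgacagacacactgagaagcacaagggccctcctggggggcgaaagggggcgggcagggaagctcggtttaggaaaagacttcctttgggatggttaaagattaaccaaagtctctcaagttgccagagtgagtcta
Hoxa9 held 1 GATAA and 1 ATTAAA match, which do not overlap, while Hlf and this Hoxa10 window held no match to the 5 motifs. Over all 10 genes, GATAA occurred upstream of 3 (Mecom, Hoxa9 and Sox4), beside 22.6% of 32851 RefSeq windows of the same length. TGTGGT occurred upstream of 1 (Meis1) beside 14% of windows, TGACAG upstream of 1 (Mecom, at 1 of its 2 starts) beside 15.9%, CACGTG upstream of 2 (Bmi1 and, at 1 of its 2 starts, Runx1) beside 6.02%, and ATTAAA upstream of 1 (Hoxa9) beside 12.7%. Mecom, Hoxa10 and Runx1 each have 2 starts in the table, which gives them 2 windows. The Hlf window held 26 CG dinucleotides, the Hoxa10 window shown 7 and the Hoxa9 window 3, beside a median of 6. The other Hoxa10 window (chr6:52234940-52235189), not printed here, also overlaps no annotated exon and held 20.

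Sox4 (chr13:28948919-28953713, minus strand), a SoxC-class factor active in lymphoid and myeloid progenitors, was low but present in Gata1s cells. WT libraries had 29.9, 47.4 and 45.2 CPM. LUC had 0.68, 0.76 and 2.02 CPM and the libraries labelled Arid3a had 4.18, 0.36 and 1.56 CPM. The sh-ctrl libraries had 49, 0 and 1 counts, shArid3a had 1 and 0, and miR-125b had 16, 9 and 4. The pooled WT level was 45.5 times that of the Gata1s libraries. Within Gata1s cells 1 library of a group could hold most Sox4 counts, as replicate 1 did in sh-ctrl and in the group labelled Arid3a.

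Myb (chr10:21124936-21160905, minus strand), which drives proliferation of immature blood cells, had 348, 384 and 375 CPM in WT. It had 183, 191 and 174 CPM in LUC, 124, 194 and 174 CPM in the libraries labelled Arid3a, 111, 152 and 203 CPM in sh-ctrl, 133 and 191 CPM in shArid3a, and 153, 267 and 231 CPM in miR-125b. WT stood apart, and the 5 Gata1s groups overlapped their neighbours in the order of means. Runx1 (chr16:92601466-92826149, minus strand), the DNA-binding subunit of core-binding factor, had 174, 201 and 243 CPM in WT and 159 to 180 CPM in sh-ctrl, which overlapped. Its lowest mean was 101 ± 15.5 CPM (SD, n = 3) in LUC.

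Meis1 (chr11:18879817-19018985, minus strand), the TALE-class partner of HOXA9 and also a factor of normal megakaryocyte formation, went the other way from Hoxa9. WT had 43.5, 49.97 and 55.4 CPM. LUC had 148, 135 and 147 CPM, the libraries labelled Arid3a had 202, 188 and 184 CPM, and sh-ctrl had 143, 85.7 and 111 CPM. The miR-125b libraries had 95.7, 93.1 and 126 CPM and shArid3a had 94.1 and 68.9 CPM. The lowest Gata1s level, 68.9 CPM in shArid3a replicate 3, was still above WT. The separation of Meis1 from WT was lost under the other scalings, with library totals alone or with TMM within each table, when shArid3a replicate 3 fell into the WT range and only Mycn lay below every Gata1s library.

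Mycn (chr12:12936096-12941914, minus strand), a MYC family factor of fetal stem cells, had 51.5, 58.4 and 35.6 CPM in WT. It had 172, 169 and 168 CPM in LUC, 232, 215 and 218 CPM in sh-ctrl, and 149, 339 and 294 CPM in miR-125b. Pooled Gata1s levels were 3.96 times WT for Mycn and 2.66 times WT for Meis1. Bmi1 (chr2:18677018-18686629, plus strand) varied less between the sides, with 41.3, 50.6 and 48.7 CPM in WT and 40.1 to 102 CPM in Gata1s libraries, where LUC and the group labelled Arid3a had the highest means.

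The order of the genes by level per kilobase of gene length differed between WT and LUC. In WT, Myb led with 90.1 ± 4.59 CPM per kilobase, followed by Runx1 at 17.4 ± 2.92, Mycn at 14.7 ± 3.55, Bmi1 at 11.8 ± 1.24, Sox4 at 8.52 ± 1.98 and Meis1 at 4.71 ± 0.57 (SD, n = 3). In LUC, Mycn led with 51.6 ± 0.70, followed by Myb at 44.5 ± 2.07, Bmi1 at 20.4 ± 2.17, Meis1 at 13.6 ± 0.65 and Runx1 at 8.58 ± 1.31 CPM per kilobase. Runx1 therefore stood above Meis1 in WT and below it in LUC.

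Within the Gata1s tables, the question of the design was what changed when Arid3a or miR-125b was modulated. Of the 10 regulators, 6 (Meis1, Mycn, Myb, Runx1, Bmi1 and Sox4) had enough counts to be tested, and none was called at an edgeR adjusted p under 0.05 in any of the 4 comparisons. Beside them, 0% of 13495 genes were called between the libraries labelled Arid3a and LUC, 0.0857% of 14004 between shArid3a and sh-ctrl, 24.4% between miR-125b and sh-ctrl and 1.35% between miR-125b and shArid3a. In the same order, 2, 1, 0 and 2 of the 6 had an unadjusted edgeR p under 0.05. Over all genes, this held for 2885 of 13495 and for 3616, 5570 and 2033 of 14004. Whether the regulators differ from all genes in this count was not tested. DESeq2 called 1, 1, 0 and 0 of the regulators. Its calls over all genes are given further below for each comparison but the third, as numbers without a share. Whether 0 or 1 of the 6 is near that share cannot be told, so these DESeq2 counts are a description only. The comparisons against sh-ctrl share its 3 libraries.

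Between the libraries labelled Arid3a and LUC, Meis1 was 0.42 higher on the log2 scale (SE 0.07, 95% interval 0.25 to 0.59, n = 3 and 3), with an adjusted p of 0.0783 by edgeR. The lowest of the 3 libraries labelled Arid3a, 184 CPM, lay above the highest LUC library, 148 CPM. DESeq2 called it (adjusted p = 0.000254), as did edgeR without replicate 1 of the libraries labelled Arid3a (log2 fold change 0.38, adjusted p = 0.00339), and its adjusted p ranged from 0.000254 to 0.375 over 13 alternatives. Mycn was 0.33 lower on the log2 scale by edgeR (−0.33, SE 0.12, adjusted p = 0.185), also with no overlap. Without that replicate 1 it was called at −0.19 (edgeR adjusted p = 0.0476), and so was Bmi1 at 0.29 (adjusted p = 0.0428) beside 0.15 with it. Meis1 and Mycn made 2 of 6 tested regulators without overlap, beside 27.6% of genes. Since Arid3a counts were not higher in these libraries, no direction with respect to Arid3a is drawn. Replicate 1 of the libraries labelled Arid3a also had the group's highest Runx1 (192 CPM) and Sox4 (4.18 CPM) and its lowest Myb (124 CPM), Mycn (107 CPM) and Bmi1 (70.7 CPM).

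Between shArid3a and sh-ctrl, Runx1 had the smallest p of the regulators. Its levels were 110 and 122 CPM in shArid3a and 167, 159 and 180 CPM in sh-ctrl, a log2 difference of −0.57 (SE 0.14, 95% interval −0.88 to −0.25, edgeR adjusted p = 0.0997). It was called by DESeq2 (adjusted p = 0.0178) and by edgeR without a filter on low counts (adjusted p = 0.0356). Over 14 alternatives its adjusted p ranged from 0.0178 to 0.547 and its sign stayed negative. Runx1 and Mycn did not overlap between these groups, 2 of 6 beside 44.2% of genes. Meis1 had a log2 difference of −0.49 (SE 0.24, edgeR adjusted p = 0.217), with 94.1 and 68.9 CPM in shArid3a, and the groups overlapped. Myb and Bmi1 had log2 fold changes of 0.03 and 0.01, with 95% intervals of −0.59 to 0.66 and −0.49 to 0.51.

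Between miR-125b and sh-ctrl, where 3414 genes were called (1700 higher, 1714 lower), the regulators had log2 fold changes between −0.72 and 0.47. Myb had the largest positive value, 0.47 (SE 0.25, 95% interval −0.09 to 1.02, edgeR adjusted p = 0.194). With the replicate number as a block, Myb passed the threshold (log2 fold change 0.47, edgeR adjusted p = 0.0471). Myb and Bmi1 were higher in miR-125b in 3 of 3 pairs and Runx1 was lower in 3 of 3, but under the block the edgeR adjusted p was 0.183 for Bmi1 and 0.193 for Runx1. The labels do not say what the replicate numbers mean, and no share over all genes is given, so these counts of pairs are a description. Runx1 had a log2 fold change of −0.24 (SE 0.12, adjusted p = 0.172), the only regulator of 6 without overlap, beside 45.2% of genes. With library totals alone in place of TMM, Runx1 was called at −0.43 (adjusted p = 0.048), but that scaling moves the median of all genes by −0.19 on the log2 scale and lowers the share of higher calls from 49.8% to 26.6%. Mycn spread widest, with 149 CPM in miR-125b replicate 1 and 339 and 294 CPM in the other replicates, around 215 to 232 CPM in sh-ctrl. Its log2 fold change was 0.22 (SE 0.26, edgeR adjusted p = 0.564).

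Between miR-125b and shArid3a, all 6 tested regulators were higher in miR-125b by estimate, with a median log2 fold change of 0.40 beside −0.01 over all genes, and none was called. Mycn had the largest well-counted difference, 0.66 (SE 0.29, 95% interval 0.01 to 1.3, edgeR adjusted p = 0.339). Without miR-125b replicate 1 it was 0.94 (edgeR adjusted p = 0.0312). Runx1 had the smallest unadjusted p of the 6, 0.0408, at a log2 difference of 0.33 (SE 0.14, edgeR adjusted p = 0.317). Runx1 and Sox4 did not overlap, 2 of 6 beside 29.5% of genes, and Sox4 rested on 29 counts in miR-125b and 1 in shArid3a. In miR-125b replicate 1 the mast cell and basophil markers summed to 1609 CPM, the most of any Gata1s library, and the part of this in the Mycn value was not tested.

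**Figure D4:**
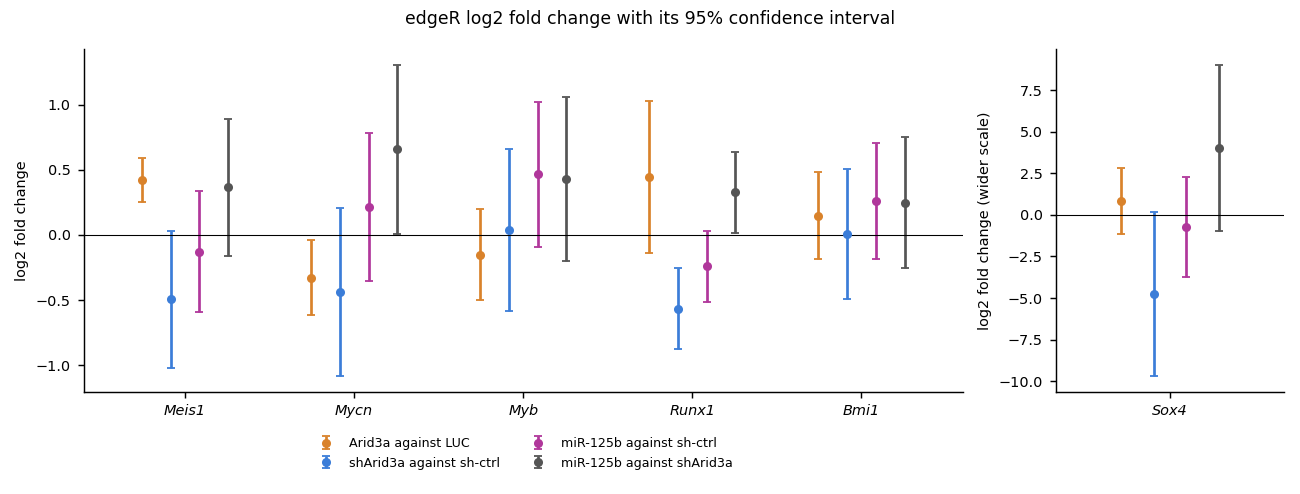
edgeR log2 fold change (y axis) of the 6 tested regulators in the 4 comparisons, with bars for the 95% confidence interval; Sox4, with few counts, has a wider scale of its own. The interval of Meis1 between the libraries labelled Arid3a and LUC, 0.25 to 0.59, and that of Runx1 between shArid3a and sh-ctrl, −0.88 to −0.25, leave out 0. So do that of Mycn between the libraries labelled Arid3a and LUC, −0.62 to −0.04, and 2 between miR-125b and shArid3a. The latter are Runx1, 0.02 to 0.63, and Mycn, 0.01 to 1.3. No edgeR adjusted p was under 0.05.

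Genes known as partners, relatives or targets of the regulators were counted in the same comparison, in which 24.4% of all tested genes were called. A list whose share of called genes is near that value is not set apart by it. Of 10 tested genes for chromatin regulators of HOX loci, 1 was called higher and 6 lower, with a median log2 fold change of −0.65 beside −0.03 over all genes. Dot1l, the H3K79 methyltransferase, fell from 106 ± 3.41 to 59.8 ± 6.81 CPM (SD, n = 3, log2 fold change −0.85, edgeR adjusted p = 0.0072). Aff4 and Aff1, scaffolds of elongation complexes, fell with log2 fold changes of −0.85 and −0.70 (edgeR adjusted p = 0.0124 and 0.0155). None of these 10 was called between shArid3a and sh-ctrl, between miR-125b and shArid3a or between the libraries labelled Arid3a and LUC. In that order, 0.0857%, 1.35% and 0% of all genes were called, and the medians of the 10 were −0.38, −0.05 and 0.09. Dot1l, Aff4 and Aff1 had log2 fold changes of −0.72, −0.47 and −0.79 between shArid3a and sh-ctrl. The TALE-class partners of HOX proteins had 0 of 6 called in each comparison, with a median of −0.10 between miR-125b and sh-ctrl.

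Of 12 tested MYB and MYC family genes and cofactors, 0 were called higher and 3 lower between miR-125b and sh-ctrl, a share near the 24.4% of all genes, with a median of −0.38. The log2 fold changes were −0.81 for Mga, a MAX partner that opposes MYC, −0.94 for Ep300, a coactivator of MYB, and −0.87 for Mxd4, another MAX partner (edgeR adjusted p = 0.00791, 0.00872 and 0.0208). Of 8 RUNX relatives and core-binding factor partners, 1 was called, a share below the 24.4% of all genes. Runx3 fell from 138 ± 26.2 to 66.1 ± 10.2 CPM (SD, n = 3, log2 fold change −1.09, edgeR adjusted p = 0.00605). Of 3 PAR bZIP relatives of Hlf, Tef fell by 0.86 on the log2 scale (edgeR adjusted p = 0.0173). Of 3 tested SoxC and PRDM relatives, Sox12 and Prdm2 fell with log2 fold changes of −1.44 and −0.66 (edgeR adjusted p = 0.0154 and 0.0491).

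The list for Polycomb repressive complex 1 holds 19 genes of its several forms, not only of the form with BMI1. Of these, 2 were called higher and 3 lower between miR-125b and sh-ctrl, a share near the 24.4% of all genes. Cbx6, a chromodomain subunit, rose from 33.0 ± 14.3 to 93.4 ± 29.8 CPM (SD, n = 3, log2 fold change 1.49, edgeR adjusted p = 0.0111). It was also higher in miR-125b than in shArid3a, by 2.33 on the log2 scale (edgeR adjusted p = 0.0171). Phc3 and Rybp, 2 further subunits, fell with log2 fold changes of −1.09 and −0.89 (edgeR adjusted p = 0.00888 and 0.0177). Cdkn2a and Cdkn2b, the locus that BMI1 is known to repress, had 0 of 2 called in each comparison. Cdkn2a, named after its values were seen, had 0 counts in all 3 WT libraries and 23.5 to 152 CPM in the Gata1s libraries. Both genes of the locus lay below every Gata1s library in WT. Cdkn2a passed the filter through the Gata1s groups alone, so this is a description only. The part of BMI1 in these levels was not tested.

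Of 11 tested genes known as targets of HOXA9, MEIS1 or MYB, 3 were called higher and 0 lower between miR-125b and sh-ctrl, also near the 24.4% of all genes. Sox4, itself 1 of the 10 regulators, is among these 11 and was not called. Mpo, a neutrophil granule enzyme, rose from 0.218 ± 0.351 to 46.5 ± 20.7 CPM (SD, n = 3, log2 fold change 7.73, edgeR adjusted p = 0.00162). Elane, a granule protease, rose by 2.87 and Lmo2, a cofactor of TAL1, by 0.73 on the log2 scale (edgeR adjusted p = 0.0248 and 0.0308). Mpo was also higher in miR-125b than in shArid3a, by 7.91 on the log2 scale (edgeR adjusted p = 0.00899). It was the only 1 of the 11 called there, beside 1.35% of all genes. Mpo and Elane also belong to the neutrophil list, whose sum was 105 to 190 CPM in miR-125b and 72.8 to 119 CPM in sh-ctrl. Of 27 other stem and progenitor genes, 2 were called higher and 3 lower, a share below the 24.4% of all genes. Those that fell were led by Lin28b, a fetal RNA-binding protein, with a log2 fold change of −1.37 (edgeR adjusted p = 0.00858). Slamf1, a surface receptor of stem cells, had −4.56 and Etv6, an ETS factor, had −0.52 (edgeR adjusted p = 0.0123 and 0.0154). The lists share genes, so their counts are not separate. Lin28b is also among the recalled miR-125b targets counted next, and Lmo2 is in both lists of this paragraph.

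Of 11 tested genes recalled as miR-125b targets, 8 were called lower and 0 higher in the same comparison, beside 24.4% of all genes called, with a median of −1.41. The log2 fold changes were −2.56 for Arid3a, −1.56 for Klf13 and −1.94 for Abtb1 (edgeR adjusted p = 0.000282, 0.00158 and 0.00159). Between miR-125b and shArid3a, 4 of the 11 were called lower and 0 higher, beside 1.35% of all genes called, with a median of −0.54. The log2 fold changes were −1.13 for Arid3a, −1.02 for Klf13, −1.61 for Abtb1 and −1.34 for Lin28b (edgeR adjusted p = 0.024, 0.0261, 0.0108 and 0.0462). Between shArid3a and sh-ctrl, Arid3a was the only gene of all these lists to be called, with a fall by 1.43 on the log2 scale (edgeR adjusted p = 0.0368). Only 0.0857% of all genes were called there, so the lack of a call does not show that a gene was unchanged. The recalled targets had a median of −0.37 there and the MYB and MYC list −0.54, beside −0.02 over all genes. Klf13 and Abtb1 had log2 fold changes of −0.54 and −0.33. The lists were chosen with earlier results known and support no direction of their own.

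**Figure D5:**
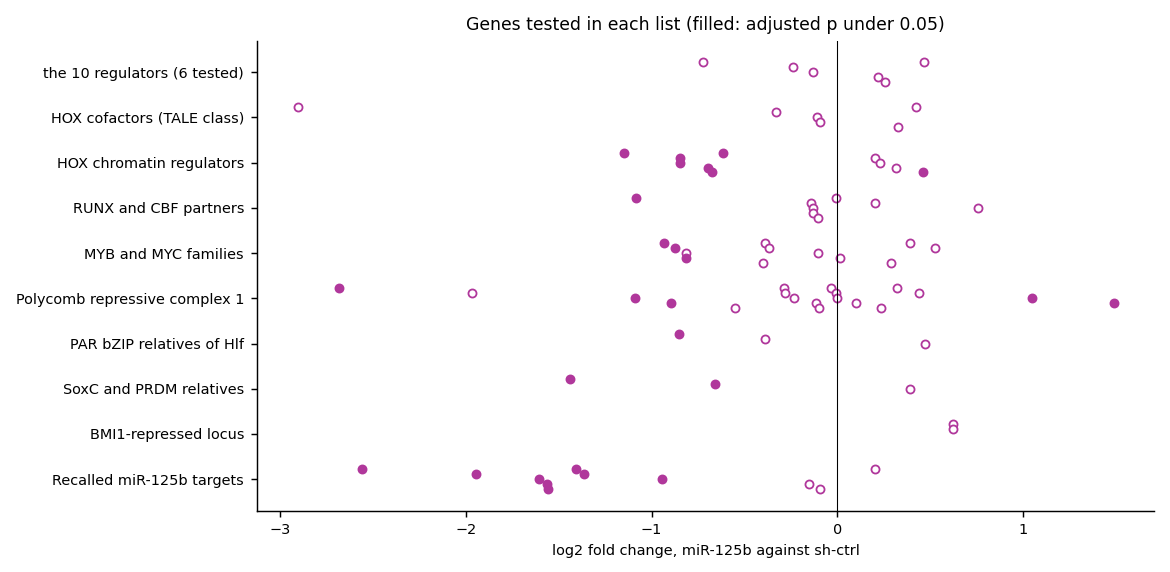
log2 fold change between miR-125b and sh-ctrl (x axis) of the tested genes in each list (y axis), 1 circle per gene, filled where the edgeR adjusted p was under 0.05. None of the 6 tested regulators is filled, 6 of 10 HOX chromatin regulators are filled below 0, and 8 of 11 recalled targets are filled below 0.

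The same lists separated WT from the Gata1s libraries in part. Of 13 known HOXA9, MEIS1 or MYB targets that passed the filter over the 6 groups, 9 were above every Gata1s library in WT and 1 was below, beside 21% and 15.7% of all genes. Sox4, itself 1 of the 10 regulators, is in this list and among the 9. Genes that passed through WT alone had to lie above, so these counts are a description. Cd34, a surface marker of progenitors, had 229, 233 and 239 CPM in WT and at most 3.50 CPM in a Gata1s library. Flt3, a cytokine receptor of lymphoid and myeloid progenitors, had 44.9, 35.6 and 48.0 CPM in WT and at most 1.19 CPM elsewhere. Bcl2, the survival factor, was the gene below, with 19.7 to 30.2 CPM in WT and 56.4 to 210 CPM in Gata1s libraries. These 3 genes were named after their values were seen. Of 10 HOX chromatin regulators, 0 were above and 1 was below, and of 19 Polycomb genes, 5 were above and 3 were below.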

How the data were processed

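RNA sequencing counts of 17 libraries in 6 groups were analysed, grouped by the labels alone. The authors deposited raw counts, whole numbers for each gene, which they had not normalized. Per the submitters' processing notes, fastp, HISAT2 2.0.5, featureCounts and mm10 were used; their roles, the annotation release and the use of strand are not given in the sources used here. Antisense or overlapping genes share exon bases with 6 of the 10 regulators (Meis1, Mecom, Myb, Runx1, Sox4 and Hoxa9), and without strand their reads cannot be told apart. Positions are GRCm38. The outer bounds of Myb and Mycn differ slightly between the deposited table and GENCODE M21, and those of the other 8 are the same.

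Each table was fitted with edgeR 4.0.16 (R 4.3.3): TMM, filterByExpr, a quasi-likelihood F test with 1 term per group, and Benjamini-Hochberg adjustment over all genes tested, with calls at an adjusted p under 0.05. The 3 groups of the knockdown table were fitted together. WT was compared by level only. The script was tested on simulated data. Alternatives were DESeq2 1.42.0, library totals, other filters, a robust fit, the replicate block, removal of rRNA-like rows and leaving out each library. The members and lists were chosen with earlier results of these data known. Named genes are the 10 regulators, Arid3a and Gata1, and up to 3 called genes per list and comparison with the smallest adjusted p. Genes called in a marker list alone are not named. The few other genes named were chosen after their values were seen, which is said beside them.

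Replicate numbers come from the titles. Between sh-ctrl and miR-125b, same-numbered libraries deviated together in all 3 pairs (correlation over genes 0.427, 0.151 and 0.294), so the numbers were taken as pairs there. This is an assumption, since some libraries with different numbers also deviated together. These were sh-ctrl replicate 3 with miR-125b replicate 2 (0.205) and sh-ctrl replicate 2 with miR-125b replicate 3 (0.095), while the rest correlated below 0. Replicates of a group differed beyond sampling noise in all 16 pairs. Counts are reads without molecular identifiers, so intervals and floors (3 counts, 95% intervals) cover counting error only.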

Additional observations from a re-analysis of the deposited data

How the results depend on the processing

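No regulator was called in the main analysis, and calls among them depended on the setting. Between LUC and the libraries labelled Arid3a, DESeq2 called 1198 genes and 1 regulator (Meis1), and edgeR without a filter on low counts called 71 genes, beside 0; leaving out a library gave 0 to 3198 genes and 0 to 3 regulators, the highest without replicate 1 of the libraries labelled Arid3a (Meis1, Mycn and Bmi1). In shArid3a against sh-ctrl, beside 12 genes, DESeq2 called 1323 and 1 regulator (Runx1), no filter 1237 and 1 (Runx1), library totals 20, at least 10 counts in every library 19, a robust fit 19, and removal of rRNA-like rows 0; leaving out a library gave 2 to 11 genes. In miR-125b against sh-ctrl, library totals called 1 regulator (Runx1) and the replicate block 1 (Myb); leaving out a library gave 734 to 2872 genes beside 3414, the fewest without sh-ctrl replicate 3, and 0 regulators. In miR-125b against shArid3a, beside 189 genes, DESeq2 called 737 and no filter 715; leaving out a library gave 12 to 329 genes and 0 to 1 regulators (Mycn, without miR-125b replicate 1). The cause of these differences was not tested. An arm left with 1 library is assumed to vary like the others.

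Reversed signs concerned values near 0 or few counts, and leaving out a library gave these ranges of the log2 fold change. Against LUC, Myb ran from −0.285 to 0.016 and Sox4 from −0.26 to 1.51, each with the reversed sign only without replicate 1 of the libraries labelled Arid3a. In shArid3a against sh-ctrl, Myb ran from −0.22 to 0.26 and Bmi1 from −0.23 to 0.22, and both were reversed without sh-ctrl replicate 1 (−0.18 and −0.16) and without shArid3a replicate 3, Bmi1 also without sh-ctrl replicate 3 (−0.056). There Myb was also −0.18 with library totals, and Bmi1 −0.19 with library totals, −0.017 with at least 10 counts in every library and −0.0051 without rRNA-like rows. In miR-125b against sh-ctrl, Meis1 ran from −0.30 to 0.061 (reversed without sh-ctrl replicate 1), Mycn from −0.020 (without miR-125b replicate 2) to 0.50, and Sox4 was 0.72 with the replicate block.

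The block changed no call of a regulator but that of Myb. It gave 3687 genes in miR-125b against sh-ctrl. In the other comparisons the numbers were not taken as pairs, though same-numbered libraries correlated above 0 there too. LUC and the libraries labelled Arid3a correlated at 0.16, 0.36 and 0.01, with 0 genes called under the block. The shArid3a group has 2 pairs with each other group, at 0.43 and 0.16 with sh-ctrl and 0.24 and 0.20 with miR-125b. Under the block 15 and 255 genes were called. Library totals alone moved the share of higher calls in shArid3a against sh-ctrl from 58.3% to 40%. With library totals or TMM within each table, 1 regulator in place of 2 lay below every Gata1s library in WT. Without WT replicate 1, Runx1 joined the 6 above. This setting, those without LUC replicate 3, sh-ctrl replicate 1 or replicate 1 of the libraries labelled Arid3a, and the limits on low counts were added after seeing the data. Depth limits the 4 regulators near 0: 3 counts are 0.0732 to 0.107 CPM in a Gata1s library, depending on its depth.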

Other observations

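Prdm16 varied widely between replicates of 1 group, and was picked out after its values were seen. Prdm16, a PRDM relative of Mecom that also marks stem cells, had 0, 7.19 and 9.57 CPM in miR-125b and 0.0622, 3.0 and 9.64 CPM in sh-ctrl. In both groups replicate 1 was the lowest for Prdm16.

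Runx2, a relative of Runx1, had 39.2, 34.3 and 51.0 CPM in WT and at most 2.07 CPM in a Gata1s library, whereas Runx3 had 64.0, 65.4 and 67.5 CPM in WT and 57.7 to 172 CPM in Gata1s libraries. Nfil3, which binds the same sites as Hlf, had 25.4, 27.0 and 41.6 CPM in WT and at most 6.64 CPM elsewhere. Mycl had 4.16, 3.003 and 3.07 CPM in WT and at most 0.416 CPM elsewhere. These 3 relatives and Runx3 were chosen after their values were seen, and their levels were not tested, since WT lies in a table of its own.

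The genes named next were likewise chosen after their values were seen. LUC replicate 3 was the only Gata1s library with counts of Hoxa3 (2), Hoxa6 (4) and Gfi1 (4), and it had 40 counts of Flt3 and 269 of Mpo, beside at most 1 and 14 in the other LUC libraries. Its levels of Meis1 (147 CPM) and Bmi1 (78.9 CPM) lay between those of the other LUC libraries, and those of Mycn (168 CPM) and Myb (174 CPM) were the lowest of the LUC group.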
